A study of Homo sapiens with 22 samples.

Results

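The effect of MSK2 siRNA was followed in serum-starved IMR90 cells that received no epidermal growth factor (EGF). IMR90 is an established line of human fetal lung fibroblasts. Of the 22 RNA-seq libraries of the study, 8 belonged to this comparison and were chosen by their labels, 4 of cells transfected with a non-targeting control siRNA and 4 of cells transfected with MSK2 siRNA. The cells of all 8 libraries received 10 nM siRNA every 24 h for 72 h in all and were starved of serum for 24 h. They were given PBS, the vehicle of EGF, for which the labels state a time of 60 min. The other 14 libraries came from cells with the same siRNAs given 750 pM EGF for 30 min (4 and 4 libraries) or 60 min (3 and 3). The knockdown reagent was a commercial pool of siRNAs and no other MSK2 reagent was used in these libraries, so that effects of MSK2 loss and effects of the pool on other transcripts cannot be told apart. The labels do not say whether replicates were separate cultures. The p-values of the fit measure the spread between libraries of a group, estimated over all 22 libraries in 6 groups. Changes in RNA per cell and changes in the mix of cells cannot be told apart in such bulk samples.

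MSK2 is the nuclear serine/threonine kinase encoded by RPS6KA4, and MSK1 is its close relative encoded by RPS6KA5. Both are activated by ERK and p38 MAP kinases and phosphorylate histone H3 as well as the transcription factors CREB and ATF1. The RSK kinases (RPS6KA1, RPS6KA2, RPS6KA3 and RPS6KA6) belong to the same family and are activated by ERK. Serum starvation lowers ERK activity, which was not measured in these libraries. The PBS libraries show the siRNA effect in cells without added EGF. The siRNA was given over 72 h and starvation lasted 24 h, so effects that arose before and during starvation cannot be told apart.

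The libraries held 7893209 to 22244216 gene reads with control siRNA and 12236060 to 20986133 with MSK2 siRNA, with medians of 14223066 and 14191926. The shallowest library, control siRNA replicate 4, stood apart from the other 7 on the second principal component of the 8 libraries (-23.5, against -12.3 to 9.74), and counts that lead a paragraph are given without it where they changed. Mitochondrial transcripts took 1.45 to 1.95% of gene counts with control siRNA and 2.04 to 2.85% with MSK2 siRNA, without overlap, and the part of this in the results was not tested. All 13 fibroblast markers, such as COL1A1, VIM and PDGFRA, passed the filter on low counts, whereas none of 8 endothelial and none of 9 leukocyte markers did. The summed level of the endothelial markers was 3.995 to 8.296 CPM with control siRNA and 6.74 to 8.37 CPM with MSK2 siRNA, and that of the leukocyte markers 0.258 to 1.36 and 0.626 to 1.02 CPM, with LYZ at 0 in every PBS library. Here CPM, the count scaled to the TMM-adjusted library size, is a level that compares libraries but not genes of different length.

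RPS6KA4 (ENSG00000162302, GRCh38 chr11:64359148-64372215, plus strand) was the targeted gene and was measured first. Its level in control siRNA replicates 1 to 4 was 21.7, 22.9, 25.4 and 11.1 CPM, and in MSK2 siRNA replicates 1 to 4 it was 3.77, 2.698, 1.74 and 1.78 CPM. The groups did not overlap, and the lowest control library was replicate 4. The mean was 20.3 ± 6.31 against 2.498 ± 0.958 CPM (SD, n = 4 each), which is 87.7% lower, or -3.05 in log2 fold change (SE 0.245), and the adjusted p of edgeR's quasi-likelihood test was 1.68e-10. The two-sided exact permutation test over the 8 libraries gave p = 0.0286, the smallest p that 4 against 4 libraries allow. With same-numbered libraries taken as pairs, an exact sign-flip test over the 4 pairs gave p = 0.125, the smallest that 4 pairs allow, so that test could not pass 0.05.

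Of the related kinases, 3 other genes also passed the test (adjusted p under 0.05 over all genes tested). RPS6KA1, which encodes RSK1, measured 11.3, 8.56, 11.9 and 9.41 CPM with control siRNA and 5.01, 4.401, 7.87 and 3.95 CPM with MSK2 siRNA, so that its groups did not overlap. Its log2 fold change was -0.98 (SE 0.201, adjusted p = 0.000531). RPS6KA2, which encodes RSK3, fell from 282 ± 27.9 to 203 ± 13.5 CPM (log2 fold change -0.47, adjusted p = 9.53e-06), whereas RPS6KA3, which encodes RSK2, rose from 115 ± 20.7 to 152 ± 13.5 CPM (0.40, adjusted p = 0.00253) with overlapping libraries. RPS6KA5, which encodes MSK1, measured 5.6 ± 0.879 and 6.15 ± 1.03 CPM, and its log2 fold change, 0.15 (SE 0.175), did not pass (adjusted p = 0.585). RPS6KA6, which encodes RSK4, stayed under the filter on low counts, at 7 ± 1.86 and 6.8 ± 1.92 CPM.

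**Figure D1:**
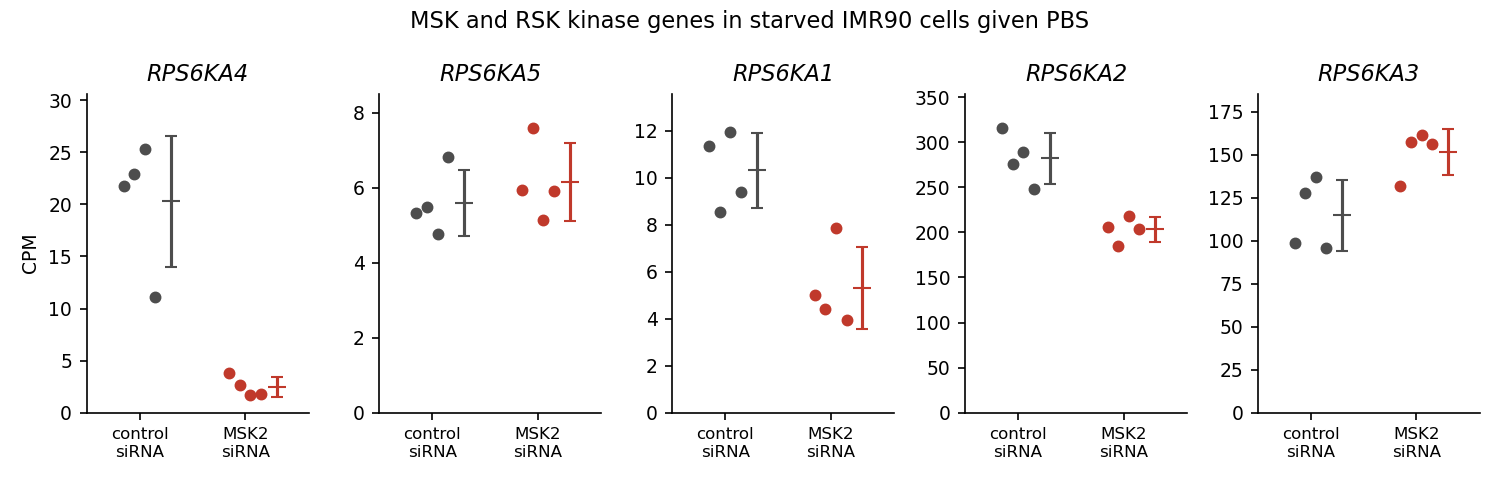
CPM of 5 MSK and RSK kinase genes in each PBS library, with control siRNA in grey and MSK2 siRNA in red, and the mean ± SD (n = 4) beside the points. RPS6KA4 lies at 11.1 CPM or more in every control library and at 3.77 CPM or less in every MSK2 siRNA library.

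Changes without EGF were widespread and mostly small. Of 9770 genes tested, 1192 were higher (12.2%) and 1234 were lower (12.6%) with MSK2 siRNA, 2426 in all (24.8%), and for 2136 genes (21.9%) the CPM of the groups did not overlap. Without control siRNA replicate 4, 1202 genes were higher and 1272 lower. The median size of a called change was 0.43 on the log2 scale, and 57 of the higher and 97 of the lower genes changed by 1 or more on that scale. The median log2 fold change over all genes tested was 0.0043. Counts of list members below are to be read beside the shares of all genes tested, 12.2% higher and 12.6% lower.

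The largest rise was that of GAL, which encodes the neuropeptide galanin. It measured 15.4, 15.5, 14.5 and 13.9 CPM with control siRNA and 118, 92, 103 and 91.7 CPM with MSK2 siRNA, 6.78-fold higher (log2 fold change 2.76, SE 0.116, adjusted p = 2.44e-16). Every library with MSK2 siRNA lay far above every control library. ANGPTL4, a secreted inhibitor of lipoprotein lipase, followed with 7.45, 7.33, 8.11 and 7.09 CPM against 45.1, 27.3, 33.9 and 32.99 CPM (log2 fold change 2.21, SE 0.167). The groups again did not overlap. The other 10 of the 12 largest rises lay between 1.40 and 1.87. They were TMEM100, CXADR (a junction protein and virus receptor), ADH1B (an alcohol dehydrogenase), NR4A2 (an orphan nuclear receptor), PRKG2 (a cGMP-dependent kinase), FAM13C, PLCE1 (a phospholipase C), ABCA8 (an ABC transporter), SLC6A15 (a transporter of neutral amino acids) and DBP (a clock-controlled transcription factor).

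The largest falls were of the size of that of the target. INSC, which encodes an adaptor of spindle orientation, measured 9.63, 8.47, 8.67 and 6.57 CPM with control siRNA and 1.09, 1.14, 0.912 and 0.867 CPM with MSK2 siRNA, a log2 fold change of -3.08 (SE 0.237). NSG1, an endosomal protein of neurons, measured 13.7, 13.4, 11.2 and 14.7 CPM against 1.23, 2.98, 1.66 and 0.963 CPM (-2.98, SE 0.223). TRPA1, a cation channel that senses irritants, measured 251, 248, 264 and 265 CPM against 31.7, 39.3, 46.7 and 48.1 CPM (-2.63, SE 0.0997). For these 3 genes the libraries of the groups lay far apart, as they did for RPS6KA4.

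Of the 12 largest falls, RPS6KA4 apart, the other 8 ran from -2.37 to -1.77 on the log2 scale. FGL2, a prothrombinase, fell from 20.8 ± 4.12 to 4.08 ± 1.38 CPM, and DLL4, a Notch ligand, from 9.73 ± 1.15 to 2.08 ± 0.433 CPM. F3, tissue factor, the starter of blood coagulation, measured 471, 451, 474 and 519.6 CPM against 120.5, 122, 119 and 137 CPM (log2 fold change -1.94, SE 0.064, adjusted p = 1.79e-18), with its libraries in narrow and separate ranges. PTGS2, the inducible cyclooxygenase, fell from 5.79 ± 0.915 to 1.58 ± 1.08 CPM. TEK, an angiopoietin receptor, fell from 56.1 ± 3.56 to 16.2 ± 5.47 CPM and IGFBP2, a binder of insulin-like growth factors, from 71.3 ± 6.34 to 20.9 ± 6.33 CPM. The remaining 2 were ACTG2, described with the actin genes, and RPS28, a protein of the small ribosomal subunit, which fell from 61.1 ± 3.54 to 14.6 ± 3.94 CPM. The value of RPS28 is uncertain because near-identical copies exist in the genome and its exons overlap those of NDUFA7.

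Genes of cholesterol synthesis were lower with few exceptions. Their transcription is driven by SREBP-2, a membrane-bound factor that is released when sterols in the endoplasmic reticulum are low. Of the 17 measured enzymes of sterol synthesis, 14 fell and none rose, with a median log2 fold change of -0.88 (-0.78 without control siRNA replicate 4, again with 14 falls). HMGCS1, which makes HMG-CoA, measured 49.8, 59.4, 60.3 and 62.4 CPM with control siRNA and 25.1, 31.9, 31.1 and 24.1 CPM with MSK2 siRNA (log2 fold change -1.05, SE 0.111). The groups were separate. MSMO1, a sterol methyl oxidase, fell from 174 ± 26.9 to 84.7 ± 7.42 CPM and SQLE, squalene epoxidase, from 131 ± 21.04 to 57.9 ± 7.59 CPM. The 3 enzymes that did not pass were EBP, TM7SF2 and PMVK, at -0.32, -0.16 and 0.28.

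Of 9 measured genes of sterol uptake and SREBP control, 3 fell and 1 rose. INSIG1, which retains SREBP in the endoplasmic reticulum and is itself a target of it, measured 159, 155, 154 and 201 CPM with control siRNA and 69.9, 55.8, 59.3 and 68.4 CPM after knockdown of MSK2. Its log2 fold change was -1.39 (SE 0.0885, adjusted p = 1.87e-12). The groups did not overlap, and control replicate 4 was the highest library. SREBF2, the gene of SREBP-2, fell by 0.45 on the log2 scale with overlapping libraries, and SREBF1 was at -0.17 (adjusted p = 0.316). NPC2, a lysosomal cholesterol carrier, rose from 187 ± 3.68 to 252 ± 27.7 CPM.

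Fatty acid synthesis, which SREBP-1 controls, was lower in 9 of 13 measured genes and higher in none (median -0.65). SCD, the desaturase that makes oleate, measured 1241, 1217, 1162 and 1307 CPM against 525, 549, 556 and 595 CPM (log2 fold change -1.15, SE 0.0666). FADS1 fell by 0.96 and FADS2 by 0.90 on the log2 scale, though the exons of these neighbouring desaturase genes overlap. FASN, fatty acid synthase, fell by 1.07 on the log2 scale with libraries that overlapped (5.799 to 26.9 CPM against 4.96 to 11.9 CPM). ACSS2, LPIN1, ACSL3 and ELOVL1 did not pass the test.

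Genes of sterol efflux went the other way. LXR is the nuclear receptor that oxysterols activate, and of the 7 measured genes of its list 4 rose and none fell (median 0.59). ABCA1, the cholesterol exporter, measured 134, 153, 147 and 91.9 CPM with control siRNA and 180.4, 239, 249 and 209.7 CPM with MSK2 siRNA (log2 fold change 0.73, SE 0.12). The groups did not overlap, and control replicate 4 was the lowest library. MYLIP, a ubiquitin ligase, rose from 19.1 ± 0.23 to 38.5 ± 7.32 CPM, and APOE and NR1H3, the gene of LXR alpha, rose by 0.68 and 0.59 on the log2 scale. Of 14 measured genes of PPARs, their targets and fatty acid oxidation, 5 rose and 2 fell, PPARD and FABP3. Without control replicate 4, 7 rose. Besides ANGPTL4 the rises were UCP2 (0.85), the carnitine carrier SLC25A20 (0.69), the lipid droplet protein PLIN2 (0.46) and ACADVL (0.45). PDK4, a brake on pyruvate dehydrogenase, was under the filter, at 1.19 ± 0.352 and 8.72 ± 1.86 CPM. Without the filter its log2 fold change was 2.94 (SE 0.255).

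**Figure D2:**
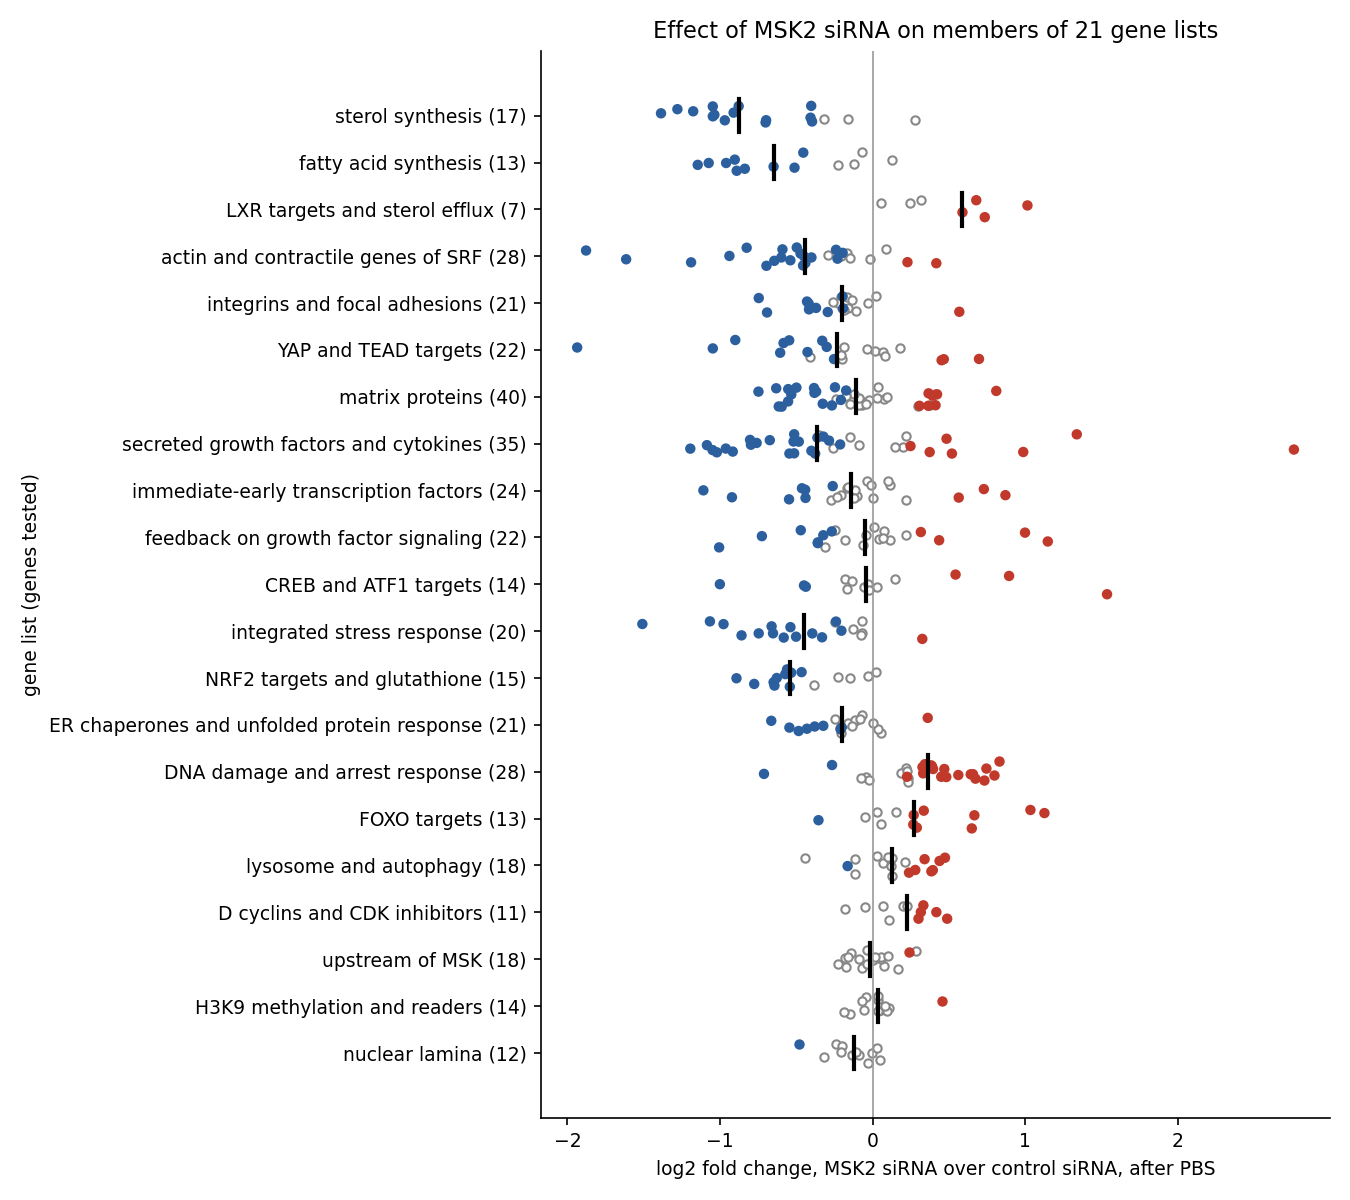
Log2 fold change of MSK2 siRNA over control siRNA after PBS for the tested members of 21 gene lists, with the number tested in brackets. Filled points passed adjusted p under 0.05 (blue lower, red higher), open points did not, and the black bar is the list median, which is lowest for sterol synthesis (-0.88) and highest for LXR targets (0.59).

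Actin and contractile genes also fell. SRF, serum response factor, activates them together with MRTF cofactors that sense free actin, by binding a short sequence called the CArG box. Of 28 measured genes of this list, 19 fell and 2 rose (median -0.44), and 21 fell without control siRNA replicate 4. SRF itself measured 21.7, 21.8, 19.2 and 17.9 CPM with control siRNA and 7.11, 6.53, 6.96 and 5.97 CPM with MSK2 siRNA (log2 fold change -1.62, SE 0.123). ACTG2, the gamma actin of enteric smooth muscle, measured 321, 369, 356 and 365 CPM against 104, 99.4, 84.2 and 96.3 CPM (-1.88, SE 0.0651). Neither gene had overlapping groups.

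The abundant cytoskeletal genes fell by less. ACTB, beta actin, measured 11219, 10563, 10835 and 12072 CPM against 7677, 7023, 6646 and 7239 CPM (log2 fold change -0.64, SE 0.0595), and ACTG1 fell by 0.83 on the log2 scale. On the same scale TGFB1I1, a focal adhesion adaptor, fell by 1.19, CNN1 (calponin) by 0.94, FLNA (filamin A) by 0.60, MYLK (myosin light chain kinase) by 0.59, TAGLN by 0.45 and VCL (vinculin) by 0.40. The gene of smooth muscle actin, ACTA2, whose exons overlap those of FAS, went from 96.98 ± 4.93 to 114 ± 5.2 CPM and was called higher (0.23, adjusted p = 0.0203). LMOD1 was the other rise (0.42), and neither call was made without the filter on low counts. The genes of the MRTF cofactors, MRTFA and MRTFB, lay at -0.29 and -0.15 and did not pass the test, nor did MYL6, MYL9, TPM2, FHL2 and TAGLN2. MYOCD, the gene of a further SRF cofactor, lay under the filter, at 4.36 ± 0.809 and 1.58 ± 0.375 CPM. Of 5 measured smooth muscle and pericyte markers MCAM and SMTN fell and RGS5 rose. The call of RGS5 (0.45, adjusted p = 0.0218) was lost in 5 alternatives, among them the fit without control replicate 1 (adjusted p = 0.0813) or 2 (0.0851) or MSK2 siRNA replicate 2 (0.0561).

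Promoters of 4 genes are shown because they hold the motifs that the actin genes and the amino acid response are known for. Sequences of 300 bases, from 250 before to 50 after the RefSeq start on GRCh38.p14, were at hand for 8050 of the genes tested. Capitals mark the CArG boxes in SRF, ACTG2 and MYLK, and in CHAC1 and at the start of the MYLK window the CARE, the element that ATF4 binds, here read as TTGCATCA. Both were among 9 motifs searched for, each on both strands, and not all of the 9 are reported here.
SRF (chr6:43171019-43171318, plus strand): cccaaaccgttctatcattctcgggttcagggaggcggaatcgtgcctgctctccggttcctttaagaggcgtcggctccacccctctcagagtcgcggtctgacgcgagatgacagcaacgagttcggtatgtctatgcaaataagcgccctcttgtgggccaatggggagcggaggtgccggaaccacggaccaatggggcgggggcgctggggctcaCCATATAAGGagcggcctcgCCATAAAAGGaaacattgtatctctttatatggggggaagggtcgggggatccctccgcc
ACTG2 (chr2:73892758-73893057, plus strand): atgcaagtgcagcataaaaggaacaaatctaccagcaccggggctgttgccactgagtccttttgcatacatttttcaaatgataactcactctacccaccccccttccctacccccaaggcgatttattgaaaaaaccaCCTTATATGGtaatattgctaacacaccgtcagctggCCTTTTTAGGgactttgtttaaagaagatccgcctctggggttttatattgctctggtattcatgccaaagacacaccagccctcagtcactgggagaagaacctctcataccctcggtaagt
MYLK (chr3:123620499-123620798, minus strand): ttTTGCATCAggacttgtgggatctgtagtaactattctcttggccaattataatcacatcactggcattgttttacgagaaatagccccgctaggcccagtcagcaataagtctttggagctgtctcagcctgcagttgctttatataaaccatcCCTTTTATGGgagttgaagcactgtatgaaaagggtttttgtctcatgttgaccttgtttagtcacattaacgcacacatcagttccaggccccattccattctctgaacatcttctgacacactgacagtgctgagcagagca
CHAC1 (chr15:40953221-40953520, plus strand): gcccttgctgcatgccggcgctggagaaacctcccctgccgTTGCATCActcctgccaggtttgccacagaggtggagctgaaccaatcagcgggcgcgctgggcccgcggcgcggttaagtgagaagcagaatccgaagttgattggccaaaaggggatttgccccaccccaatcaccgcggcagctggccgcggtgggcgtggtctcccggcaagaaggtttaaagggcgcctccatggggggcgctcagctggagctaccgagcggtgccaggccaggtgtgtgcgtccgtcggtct
SRF and ACTG2 each held 2 boxes, and MYLK held 1. A CArG box was present in 8 of 25 promoters of the actin list (32.0%) and in 1.14% of all promoters searched, and the list was compiled from genes known as SRF targets. Of the 8 genes with a box 7 fell, and of the 17 without a box 10 fell. Over all called genes the box was present in 1.62% of promoters of higher and in 2.43% of promoters of lower genes. The CRE, TGACGTCA, which CREB and ATF1 bind, was present in 3.63% of all promoters, in 3.55% of those of higher genes and in 3.02% of those of lower genes. The CARE was present in 0.497% of all promoters, in 0.101% of those of higher and in 1.46% of those of lower genes, with CHAC1 and AARS1 its carriers among 16 promoters of the amino acid response. The sterol element core CACCCCAC was present in 2.36% of all promoters, in none of 12 promoters of sterol synthesis genes and in SREBF2. A match describes the letters in this window and is not evidence of binding.

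Adhesion and matrix genes moved in both directions. Of 21 measured integrins and focal adhesion genes 9 fell, among them ITGB3 (-0.75), ITGA1 (-0.69) and ITGA5, a fibronectin receptor subunit (-0.43), and ITGA3, a laminin receptor subunit, rose (0.57). ITGA8, under the filter, measured 7.27, 5.77, 4.66 and 3.99 CPM with control siRNA and 1.67, 1.28, 0.249 and 0.385 CPM with MSK2 siRNA, and its groups did not overlap. Of 22 measured YAP and TEAD targets 10 fell and 3 rose, and 12 fell without control replicate 4. CCN1, a matricellular protein, measured 577, 559, 512 and 712 CPM against 293, 302, 266 and 279 CPM (log2 fold change -1.05, SE 0.0755). CCN2, its relative, fell by 0.55 on the log2 scale, whereas NT5E, an ectonucleotidase, rose by 0.70. AXL and AMOTL1, other members of this list, lay at -0.04 and 0.01.

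Of 40 measured matrix genes 16 fell and 7 rose, and 19 fell without control siRNA replicate 4. COL4A1 of basement membranes fell from 403 ± 82.2 to 240.4 ± 13.7 CPM and COL6A2 from 3000.1 ± 498 to 2045 ± 195 CPM. Fibrillar collagen was split: COL3A1 fell by 0.25 on the log2 scale, COL1A2 rose from 19249 ± 1802 to 25617 ± 1581 CPM (0.41), and COL1A1 was at 0.30 without passing the test. FBLN2, a fibulin, had the largest rise of the list (0.81). Among 14 proteases and inhibitors, the metalloprotease ADAMTS1 fell from 298 ± 35.7 to 152 ± 5.17 CPM, the collagenase MMP1 fell by 0.52 on the log2 scale, and TIMP1 and TIMP3, inhibitors of these proteases, rose by 0.59 and 0.19. With the replicate block 4 genes of this list were higher, instead of 2. Of 15 measured TGF-beta targets, feedback genes and receptors 4 fell, led by PMEPA1 (-0.82), and 3 rose. Of the 13 fibroblast markers 6 fell and 2 rose, with PDGFRA falling from 849 ± 66.9 to 581 ± 58.4 CPM.

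Secreted growth factors and cytokines were mostly lower. Of 35 measured genes 21 fell and 7 rose (median -0.36). PDGFD, a ligand of the PDGF beta receptor, measured 154, 147, 133 and 168 CPM against 64.01, 59.8, 63.8 and 74.8 CPM (log2 fold change -1.19, SE 0.0914). VEGFA, the angiogenic factor, measured 104, 105, 105 and 70.1 CPM against 51.7, 53.5, 53.4 and 45.9 CPM (-0.92, SE 0.103). Both were separated, with control replicate 4 the lowest control library for VEGFA. On the log2 scale BMP4 fell by 1.09, IL11 by 1.05, TSLP by 1.02, EDN1 by 0.96, LIF by 0.76 and HGF by 0.51. The rises other than GAL were the chemokine CXCL12 (11.8 ± 1.49 to 29.8 ± 3.96 CPM, 1.34), TGFB3 (0.99), SFRP1 (0.52), FGF2 (0.48), VEGFC (0.37) and ANGPTL2 (0.25). Another 16 members lay under the filter, among them IL6 at 2.88 ± 0.539 and 2.09 ± 0.942 CPM. Of 13 measured receptors and binding proteins 4 fell, TEK, IGFBP2, PDGFRA and PDGFRB, and 2 rose, IGFBP6 (0.53) and IGFBP7 (0.34).

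**Figure D3:**
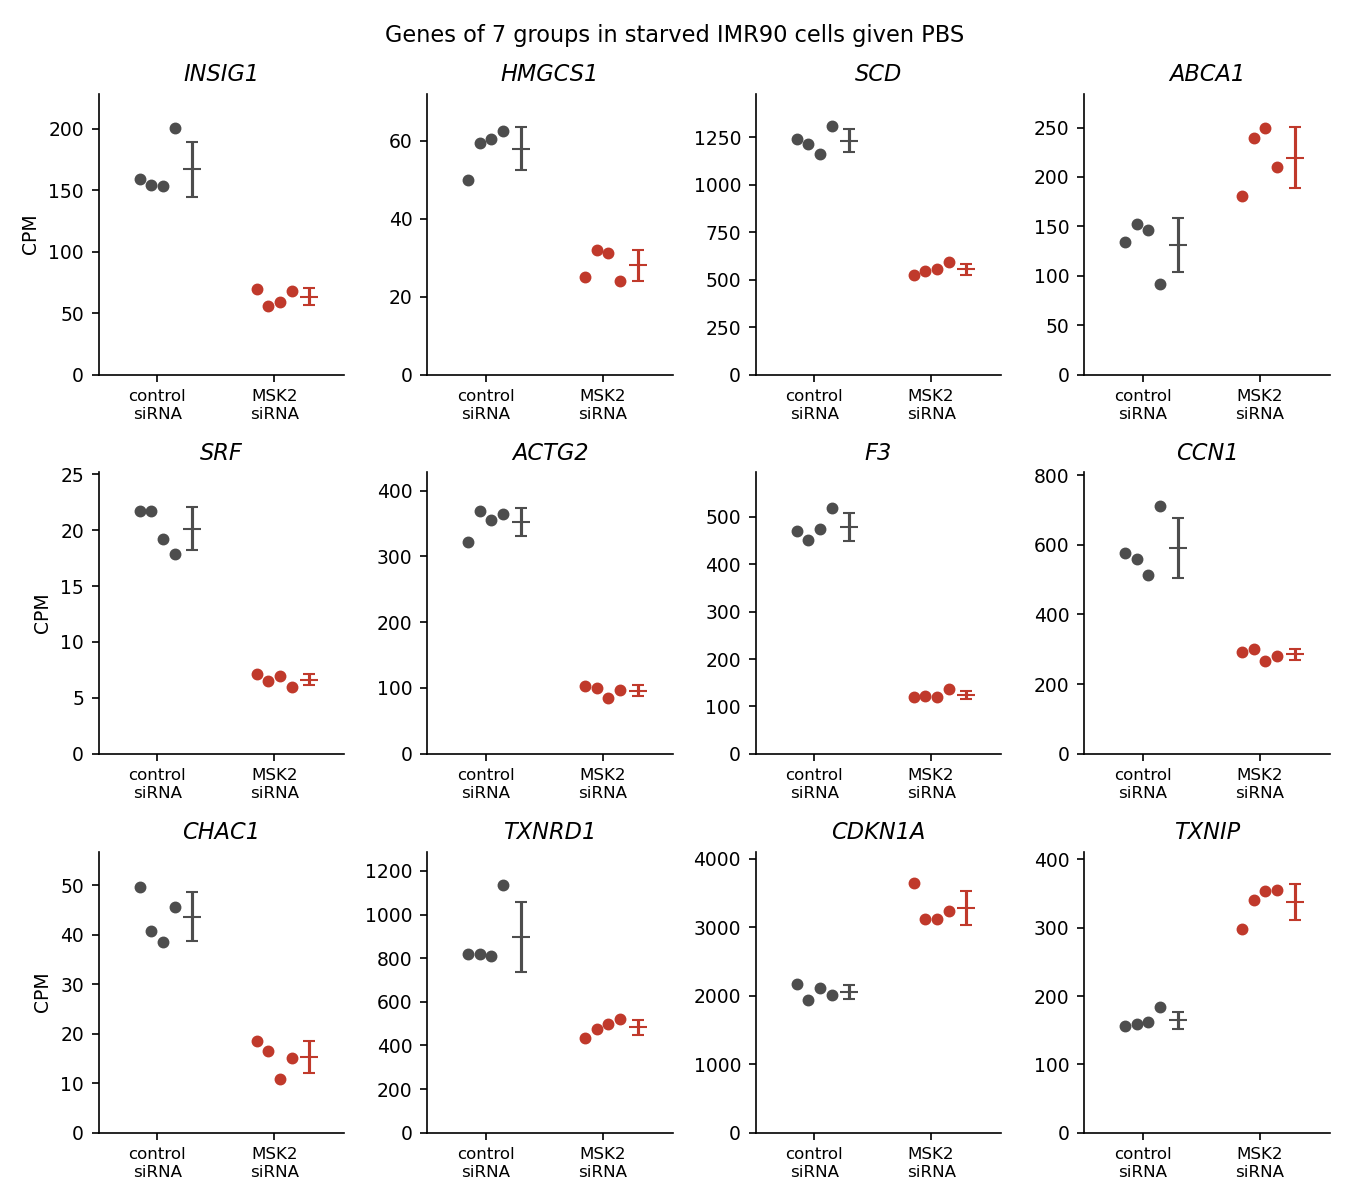
CPM of 12 genes in each PBS library, with control siRNA in grey, MSK2 siRNA in red and the mean ± SD (n = 4) beside the points; every axis starts at 0. For all 12 genes the libraries of the groups did not overlap, with 9 lower (INSIG1 at 55.8 to 69.9 CPM against 154 to 201 CPM) and ABCA1, CDKN1A and TXNIP higher with MSK2 siRNA.

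Transcription factors of the immediate-early class, which growth factors induce within minutes, were measured here without a stimulus. Of 24 measured 7 fell and 3 rose. MYC, the growth-promoting factor, measured 51, 42.3, 40.3 and 60.6 CPM against 24.2, 20.5, 23.2 and 21.6 CPM (log2 fold change -1.11, SE 0.105), and CEBPD and JUNB fell by 0.92 and 0.55 on the log2 scale. EGR1 fell by 0.44 on the log2 scale (adjusted p = 0.0127) with overlapping libraries, 85.96 to 159 CPM against 72.2 to 114 CPM. FOS, at 11.5 ± 1.42 and 10.1 ± 2.15 CPM, did not pass (adjusted p = 0.409), nor did JUN, FOSL1 and EGR2. KLF2, KLF4 and HES1 rose by 0.73, 0.56 and 0.87. Of 22 measured feedback genes 7 fell, such as the phosphatases DUSP2 (-1.01) and DUSP6 (-0.36), and 4 rose, such as DUSP4 (1.15) and RGS4 (0.999).

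The targets of CREB and ATF1, which are substrates of MSK2, showed no common direction. Of 14 measured genes of their list, which holds CREB1, ATF1, CRTC2 and CRTC3 besides targets, 3 fell and 3 rose (median -0.04). NR4A2 measured 10.5, 9.39, 7.46 and 7.99 CPM with control siRNA and 25.4, 27.9, 25.7 and 25.3 CPM with MSK2 siRNA (log2 fold change 1.54, SE 0.135), whereas its relative NR4A1 fell from 5.204 ± 1.53 to 2.72 ± 0.415 CPM (-1.001, SE 0.211). Neither had overlapping groups. RGS2, a regulator of G protein signaling, rose from 82 ± 7.501 to 152 ± 3.499 CPM, and PDE4B, a cAMP phosphodiesterase, rose by 0.54 on the log2 scale. BDNF and CRTC3, a coactivator of CREB, fell by 0.45 and 0.44. CREB1, ATF1, CREM, PER1, SGK1 and DUSP1 did not pass the test.

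Genes of the amino acid response were mostly lower. ATF4 drives this integrated stress response, which supplies amino acid transporters and serine synthesis, and of its 20 measured genes 14 fell and 1 rose (median -0.45). CHAC1, which degrades glutathione, measured 49.8, 40.9, 38.5 and 45.7 CPM against 18.6, 16.6, 10.9 and 15.1 CPM (log2 fold change -1.51, SE 0.132). The groups did not overlap. SLC7A5, a leucine transporter, fell from 155 ± 19.5 to 74.3 ± 4.03 CPM, MTHFD2 of mitochondrial folate metabolism from 105 ± 5.57 to 53.5 ± 4.76 CPM and TRIB3 by 0.86 on the log2 scale, while ATF4 itself fell by 0.24. DDIT4, an inhibitor of mTORC1, rose by 0.33 with overlapping libraries. Of 21 measured ER chaperones and genes of the unfolded protein response 8 fell and 1 rose, with HSPA5 (BiP) falling from 1397 ± 116 to 881 ± 53.2 CPM and DNAJB9 rising by 0.36 on the log2 scale.

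NRF2, encoded by NFE2L2, activates genes of glutathione and NADPH supply. Of 15 measured genes of its list 10 fell and none rose (median -0.54), and without control siRNA replicate 4 11 fell. TXNRD1, thioredoxin reductase, measured 820.3, 819.5, 809.9 and 1137 CPM against 435, 477, 499 and 519 CPM (log2 fold change -0.89, SE 0.0906). The groups did not overlap with or without control replicate 4, which was the highest control library. NQO1, a quinone reductase, fell from 1246 ± 87.2 to 838 ± 20.5 CPM. On the log2 scale NFE2L2 itself fell by 0.53, HMOX1 (heme oxygenase) by 0.56 and the subunits of glutamate-cysteine ligase, GCLM and GCLC, by 0.63 and 0.54. FTH1, FTL, KEAP1, OSGIN1 and ABCC1 did not pass the test.

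Genes of the DNA damage and arrest response were mostly higher. Of 28 measured genes 18 rose and 2 fell (median 0.36), and 19 rose without control siRNA replicate 4. CDKN1A, the CDK inhibitor p21, measured 2167, 1940.2, 2115 and 2017 CPM with control siRNA and 3649, 3126, 3124 and 3245 CPM with MSK2 siRNA (log2 fold change 0.67, SE 0.0646). The groups were separate. MDM2, a ubiquitin ligase, rose from 103 ± 1.91 to 161 ± 24.9 CPM, BTG2, an antiproliferative factor, from 69.9 ± 8.203 to 124 ± 7.78 CPM, and SESN1 and RRM2B by 0.80 and 0.66 on the log2 scale. PMAIP1, the proapoptotic NOXA, fell by 0.71. FAS, GADD45A, BAX and BBC3 did not pass.

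Growth factor signaling represses FOXO targets. Of 13 measured genes of their list, which holds FOXO3 besides targets, 8 targets rose and only FOXO3 fell (median 0.27). TXNIP, which binds thioredoxin and limits glucose uptake, measured 156, 159, 162 and 183 CPM against 299, 341, 354 and 355 CPM (log2 fold change 1.03, SE 0.0698). Its groups did not overlap. SESN3 rose by 1.13, FBXO32 by 0.67 and PIK3IP1, an inhibitor of PI3 kinase, by 0.65 on the log2 scale, and FOXO3 itself fell by 0.35. Of 18 measured lysosomal and autophagy genes 7 rose, such as CTSA (0.47) and NEU1 (0.28), and CTSB fell by 0.16. Of 17 measured genes of the hypoxia list 4 fell, the regulator HIF1A among them, and 3 rose. The glucose transporter SLC2A1 was at -0.70 and LDHA, lactate dehydrogenase, at 0.32.

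S phase genes moved in both directions, and most mitosis genes lay under the filter. TK1, thymidine kinase, measured 30.2, 24.96, 23.8 and 24.5 CPM against 8.999, 7.67, 5.88 and 9.005 CPM (log2 fold change -1.70, SE 0.141), with separate groups. On the log2 scale CCNE1 (cyclin E1) fell by 1.15 and RRM2, a ribonucleotide reductase subunit, by 1.13, whereas PCNA and UNG rose by 0.32 and 0.53, so that 4 of 16 measured S phase genes fell and 2 rose. The 6 MCM helicase genes did not pass the test. Of 15 mitosis genes only 4 passed the filter and 3 of these fell (2 without control replicate 4). Without the filter 12 of the 15 were called lower, such as CDC20 (5.06 ± 0.968 to 1.65 ± 0.61 CPM) and PLK1 (6.76 ± 1.71 to 3.19 ± 0.835 CPM), both regulators of mitotic exit and entry. Of 11 measured genes of D cyclins, CDK inhibitors, CDK4, CDK6 and RB1, 5 rose and none fell. On the log2 scale CCND1 rose by 0.33, CCND2 by 0.42, CCND3 by 0.32 and RB1 by 0.30. The only CDK inhibitor of this list that rose was CDKN2B (p15, 0.49), whereas CDKN1B, CDKN1C, CDKN2A and CDKN2D did not pass the test.

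Of 16 measured NF-kB factors and targets none rose and 5 fell, namely PTGS2, CD274, TNFAIP3, BCL3 and NFKBIZ. That is 31.25% of the measured members, all lower. Of all genes tested, 12.6% were lower and 24.8% were called in either direction. Of 23 measured interferon-stimulated genes MX1 and IFI35 fell and none rose. MX1, an antiviral GTPase, measured 7.74, 4.08, 3.82 and 45.7 CPM with control siRNA and 6.17, 4.69, 2.82 and 4.86 CPM with MSK2 siRNA, so its call rests on control replicate 4. With replicate numbers as a block its log2 fold change was -1.08 (adjusted p = 0.125). Without that control library 3 of the 20 genes of the list then tested rose and 1 fell, MX1 no longer passed the filter and IFI35 no longer passed the test. Of 15 mitochondrial transcripts 2 were called higher, the ribosomal RNAs MT-RNR1 (0.48) and MT-RNR2 (0.54), with 5 higher with the block, 8 with no filter and 12 with the block in a fit of the 8 PBS libraries alone. Of the 3 epithelial markers that passed the filter, KRT8, KRT18 and CDH1, none passed the test.

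Few genes of the signaling route to MSK2 or of the chromatin near its histone substrate were called. Of 18 measured genes from the EGF receptor to ERK and p38, only MAPK14, which encodes p38 alpha, passed the test (81.8 ± 6.26 to 95.9 ± 8.13 CPM, log2 fold change 0.24). That call was lost without control replicate 2 (0.19, adjusted p = 0.0911) and without MSK2 siRNA replicate 2 or 4 (0.21 and 0.20), with no filter on low counts (adjusted p = 0.269) and in the fit of the 8 PBS libraries (0.0818). EGFR was at -0.18, ERBB2 at -0.23 and MAPK3, the gene of ERK1, at 0.10. ERBB2 was called lower without control replicate 4 (-0.33, adjusted p = 0.00381). ARAF was called higher without control replicate 1 (0.26, adjusted p = 0.0273). Of 14 writers, erasers and readers of H3K9 methylation only the demethylase KDM4C passed (19.2 ± 1.04 to 26.4 ± 1.29 CPM, 0.45, adjusted p = 0.00248), and the writers EHMT1 and EHMT2 were at -0.06 and 0.03. KDM1A was called lower with DESeq2 (-0.15, adjusted p = 0.0485). Of 12 lamina genes only LBR, the lamin B receptor, passed (105 ± 10.8 to 74.5 ± 4.03 CPM, -0.48), and TMPO, a lamin-binding protein (-0.32, adjusted p = 0.0506), was called lower in 9 of the alternatives, such as DESeq2 (adjusted p = 0.0361) and the replicate block (0.0171). LMNB1, which encodes lamin B1, lay under the filter, at 6.09, 9.25, 7.83 and 6.31 CPM with control siRNA and 4.43, 3.76, 3.07 and 2.79 CPM with MSK2 siRNA.

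A set of 59 genes raised by 60 min of EGF had been termed MSK2 dependent. Without EGF, 44 of the 59 were already lower with MSK2 siRNA (74.6%, against 12.6% of all genes tested) and none was higher, with a median log2 fold change of -0.52, and 46 were lower without control replicate 4. The set was chosen in the study with these PBS control libraries and the EGF libraries, so it is not independent evidence of its direction. Among the largest falls were DLL4, F3, PTGS2, SRF, CHAC1, RGCC, MYC, IL11 and CCN1. RGCC, a regulator of the cell cycle, measured 55.7, 48.8, 52.6 and 65.3 CPM against 21.05, 19.5, 20.8 and 18.1 CPM (-1.48, SE 0.0957). PIM1, a serine/threonine kinase that can phosphorylate histone H3, fell from 41.4 ± 2.33 to 21.7 ± 3.01 CPM. At the other end, ZNRF3, a ligase that removes Wnt receptors, measured 8.92, 7.51, 8.02 and 5.28 CPM against 8.35, 8.16, 8.12 and 8.43 CPM, and its log2 fold change was 0.13 (adjusted p = 0.594), while PRDM1, ZPR1 and LRRC8A lay between -0.15 and -0.12 without passing. Of the other 228 genes raised by 60 min of EGF, 38 rose and 27 fell without EGF (median 0.02). That is 28.5% called in either direction, near the 24.8% of all genes tested.

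The EGF libraries share no sample with the PBS libraries, though they share both siRNAs, and the same contrast can be read in them. At 30 min of EGF 2940 genes (30.1%) and at 60 min 1897 genes (19.4%) differed between the siRNAs. Of the 1192 genes higher after PBS, 848 were also called higher at 30 min and 704 at 60 min, and 591 at both times. These are 71.1% and 59.1% of the genes called after PBS and 58.2% and 76.9% of those called higher at 30 and 60 min. Of the 1234 genes lower after PBS, 887 were called lower at 30 min and 825 at 60 min, and 690 at both times. These are 71.9% and 66.9% of the genes called after PBS and 59.8% and 84.0% of those called lower at these times. None was called in the opposite direction at either time.

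All 12 largest rises and all 12 largest falls passed the test in the same direction at both times. INSC and PTGS2, at least, were under 10 CPM in every PBS library. They passed the filter on low counts only through EGF libraries, so their calls with EGF are not independent of how they entered the test. GAL lay at 2.62 and 2.65 on the log2 scale at 30 and 60 min, against 2.76 after PBS, and TRPA1 at -2.75 and -2.62, against -2.63. All 17 sterol synthesis genes had the sign they had after PBS at both times, whereas of the 15 mitochondrial transcripts 2 had it at 30 min and 14 at 60 min. The difference of the siRNA effect between EGF and PBS, tested in the same fit by edgeR, was called for none of the 9770 genes at 30 min (0.0%) or at 60 min (0.0%). At an unadjusted p under 0.05 there were 661 genes at 30 min (6.77% of those tested) and 216 at 60 min (2.21%). With no difference in any gene, a share of about 0.05 would be under that limit. DESeq2 called the difference for none at 30 min and for 3 at 60 min. At 30 min 18 genes were called higher when control replicate 4 was left out, and 43 higher and 6 lower with no filter on low counts. SRF lay at -1.62 after PBS, -1.15 at 30 min and -0.92 at 60 min, a difference that did not pass the test. These values do not show that the effects were equal.

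**Figure D4:**
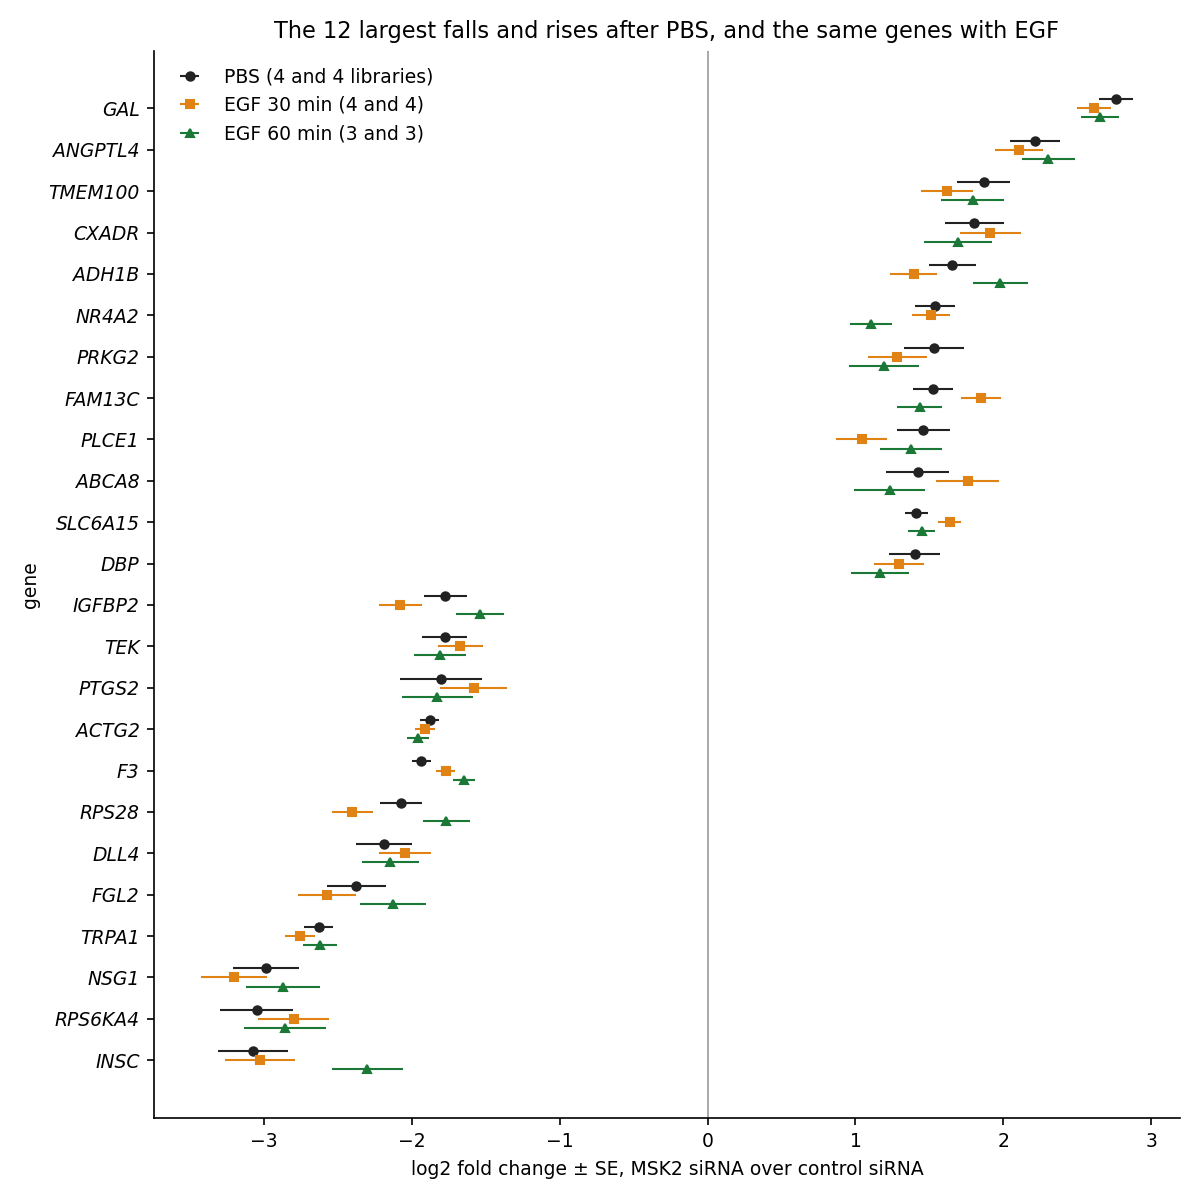
Log2 fold change ± SE of MSK2 siRNA over control siRNA for the 12 largest rises and 12 largest falls after PBS (black circles, 4 and 4 libraries), and for the same genes after 30 min (orange squares, 4 and 4) and 60 min (green triangles, 3 and 3) of EGF. The genes were chosen for their size after PBS, and all lie on the same side of 0 in the 3 comparisons, with GAL at 2.76, 2.62 and 2.65. INSC and PTGS2 passed the filter on low counts only through EGF libraries.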

How the data were processed

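RNA from IMR90 cells was amplified as cDNA (SMART-Seq v4) and made into Nextera XT libraries, which do not mark the strand, and was sequenced as paired reads of 35 bases. Per the labels and the study's methods the authors used bcl2fastq 2.20.0.422, STAR 2.7.9a on hg38 and HTSeq 0.13.5 and deposited raw gene counts; the annotation release and the strand setting are not given in the sources used here. The deposited counts of 60664 gene rows per library were read, and the 5 summary lines of HTSeq, 18.3 to 22.4% of all reads counted in the PBS libraries, were left out. Reads of genes that overlap or have near-identical copies may be lost or misplaced. Positions are from GENCODE v44 and promoters from RefSeq on GRCh38.p14.

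Genes whose CPM exceeded 10 in 2 or more of all 22 libraries entered the test of edgeR 4.0.16 in R 4.3.3 (TMM scaling, quasi-likelihood test, 1 model of 6 group means, Benjamini-Hochberg adjustment over 9770 genes, adjusted p under 0.05). Some genes passed this filter only through EGF libraries, and the same filter over the 8 PBS libraries kept 9530 genes. All fold changes are log2, MSK2 siRNA over control siRNA. The test was tested on simulated data. DESeq2 1.42.0, other filters and scalings, a replicate block, a fit of the PBS libraries alone and leaving out each library were the alternatives. An exact sign-flip test of the targeted gene over same-numbered libraries, and a count of calls over all list members under each alternative, were added after seeing the data. Libraries were grouped by their labels, and replicate pairs of a group differed by more than sampling noise (chi-square of 5.05 or more per degree of freedom). Same-numbered libraries deviated together (r = 0.366, 0.207, 0.141 and 0.498 for replicates 1 to 4), a pairing seen in the data and not stated by the labels. Libraries of different number had r from -0.302 to 0.173. Control replicate 3 correlated more with MSK2 siRNA replicate 2 (0.160) than with replicate 3, so the pairing was clear only for replicates 1 and 4.

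Named were the 12 largest rises and falls among called genes with separate groups, the MSK and RSK genes and the 3 members of each list with the smallest p, and other members to describe a list. The members of the comparison and the 40 gene lists were chosen with earlier results of these data known, and no list was tested as a set. Standard errors come from the fit, SDs from the 4 libraries of a group, and depth limits genes near the filter most. A few members of the lists are counted in the list totals but are not reported by name here.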

Additional observations from a re-analysis of the deposited data

Results flagged for a closer look

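Of 244 groups of 4 libraries examined, 13 (5.33%) held a library far from the other 3 (gap over range above Dixon's 95% limit), and chance alone would give about 1 in 20. Control siRNA replicate 4 was that library in 6 of the 13. It was the high library for MX1 (45.7 CPM against 3.82 to 7.74), TXNRD1 (1137 against 809.9 to 820.3), NQO1 (1376 against 1195 to 1209), MMP1 (355 against 211 to 226), RGS4 (33.2 against 20.7 to 22.6) and INSIG1 (200.8 against 153.5 to 159.4). Control replicate 1 was high for LMNB2 (90.8 against 61.9 to 63.9 CPM), and control replicate 3 was low for MCAM (48.6 against 59.9 to 61.9). With MSK2 siRNA, replicate 1 was low for GREM1 (373 against 435 to 438 CPM) and PDGFRA (494 against 598 to 618) and high for ATP6V0D1 (367 against 323 to 326). Replicate 2 was high for NR4A2 (27.9 against 25.3 to 25.7 CPM) and replicate 3 for SLC25A20 (45.4 against 41.1 to 41.6).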

How the results depend on the processing

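The counts of genes higher and lower after PBS stayed within 1.5 times 1192 and 1234 under the other scalings, filters, tests and fits tried, with 891 higher and 884 lower in a fit of the 8 PBS libraries alone, and were 755 higher at adjusted p under 0.01 and 402 higher and 517 lower where a change of at least 0.5 on the log2 scale was asked for. Leaving out 1 library gave 1008 to 1202 higher and 1091 to 1272 lower genes, and 83.0 to 87.4% of the calls were shared. With the replicate block, which fits the pairing of same-numbered libraries, 1366 were higher and 1395 lower, and among the 124 genes chosen by rule the block ended the call of MX1 and no other, while OAS3 (-0.68) and TMPO (-0.34) gained one.

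RPS6KA4 lay between -3.31 and -2.88 without 1 library, and its mean difference in log2 CPM over the 4 same-numbered pairs was -2.78 (exact sign-flip p = 0.125, the smallest this pairing allows). The difference between 30 min of EGF and PBS gave 43 higher and 6 lower genes with no filter on low counts and 0 to 18 higher and 0 lower without 1 library, with 18 when control siRNA replicate 4 was left out. At 60 min it gave 1 higher and 3 lower genes with no filter, 3 lower with DESeq2, 2 lower with the replicate block, and 0 higher and 0 to 1 lower without 1 library. Of 2457 values of the 124 genes chosen by rule under the alternatives, 2368 kept direction and call, 62 lost the call, 19 gained it and 8 changed sign. The 8 were of epithelial genes near 0: KRT18 lay at -0.048 without MSK2 siRNA replicate 1 (-0.048 to 0.14 without 1 library), CDH1 at 0.11 without control replicate 4 and 0.017 without MSK2 siRNA replicate 4 (-0.35 to 0.11), and KRT8 at 0.0042 with library sizes only and at 0.027, 0.051, 0.02 and 0.042 without control replicates 1 and 3 and MSK2 siRNA replicates 2 and 3 (-0.075 to 0.051). The cause was not tested. Over all 794 tested list members and genes chosen by rule, 14563 of 15781 values kept direction and call, 609 lost the call (187 genes), 277 gained it (101 genes) and 332 changed sign (133 genes, none of them called in the reported fit). The call of MX1 was lost with DESeq2 too (-1.72).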
